A study of Mus musculus with 96 samples.

Results

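The 9 genes Thy1, Cd5, Cd28, Cd2, Cd6, Cd27, Ptprc, Il7r and Cd44, which encode surface molecules of T cells, were taken by symbol from the 24057 genes measured in single EL4 cells, and all 9 passed the filter on low values that left 11980 genes. EL4 is a mouse T-lymphoma cell line. The cells carried an shRNA against luciferase (shLuc, the control, called WT) or against Ctcf (shCTCF, called CTCF-KD), and both groups were infected and sorted for GFP. Each condition had 2 cultures of 24 cells, WT 1 and CTCF-KD 1 from an initial experiment and WT 2 and CTCF-KD 2 from a second knockdown, each captured on its own microfluidic circuit, so that circuit and culture cannot be told apart. The paper lists 2 hairpin sequences against Ctcf and does not state outright which of them each CTCF-KD culture carried. After 1 WT 2 cell with 81 detected genes was left out, 24, 23, 24 and 24 cells remained. All groups are 1 cell line, so the 95 cells are not independent donors and the spread between cultures may be partly technical.

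T cells carry on their surface an antigen receptor and a set of molecules that tune its signal. Cd28 and Cd27 deliver costimulation, Cd5 and Cd6 are scavenger-receptor family members that set the strength of receptor signalling, Cd2 and Cd44 hold cells to other cells and to matrix, and the phosphatase CD45, encoded by Ptprc, acts on the kinases next to the receptor. Thy1 is a small lipid-anchored glycoprotein used to recognise mouse T cells, and Il7r encodes the receptor chain for the survival cytokine IL-7. A gene can be graded, present in every cell at levels that vary smoothly, or on/off, absent from some cells and high in others.

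On GRCm38, Thy1 lies on chromosome 9 (44043384 to 44048579), Cd28 and Ptprc on chromosome 1 (60716800 to 60773359 and 138062861 to 138175708), Cd44 on chromosome 2 (102811141 to 102901665), Cd2 on chromosome 3 (101275899 to 101287939), Cd27 on chromosome 6 (125232622 to 125237010) and Il7r on chromosome 15 (9505788 to 9530176). Cd5 (10717116 to 10739002) and Cd6 (10789341 to 10830058) are neighbours on chromosome 19, both on the minus strand, 50338 bases apart with 1 gene between them. Cd27 overlaps Vamp1 on the opposite strand, and reads from the overlap cannot be assigned by strand unless the counting used it, which the sources do not state. RefSeq windows were matched for 5 of the 9 genes. The 250 bases before the RefSeq start site are shown for a gene found in every cell (Ptprc). They are also shown for one found in most cells with a wide spread (Cd5) and for one found in few cells (Il7r). Matches to GGAAGT on either strand, a core letter string of ETS-family factors, are in capitals. By the gene coordinates above, the Ptprc and Il7r windows lie inside the gene and the Cd5 window partly so.
Ptprc (chr1:138175306-138175555, minus strand): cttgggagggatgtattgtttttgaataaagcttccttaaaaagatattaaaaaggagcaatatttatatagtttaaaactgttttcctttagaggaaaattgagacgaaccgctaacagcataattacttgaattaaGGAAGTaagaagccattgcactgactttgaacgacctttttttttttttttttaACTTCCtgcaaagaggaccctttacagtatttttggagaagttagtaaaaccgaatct
Cd5 (chr19:10738975-10739224, minus strand): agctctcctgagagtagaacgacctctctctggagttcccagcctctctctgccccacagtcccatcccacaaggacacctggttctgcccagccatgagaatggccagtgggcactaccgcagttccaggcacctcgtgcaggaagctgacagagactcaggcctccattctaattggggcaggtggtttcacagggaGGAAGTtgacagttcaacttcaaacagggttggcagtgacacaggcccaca
Il7r (chr15:9529877-9530126, minus strand): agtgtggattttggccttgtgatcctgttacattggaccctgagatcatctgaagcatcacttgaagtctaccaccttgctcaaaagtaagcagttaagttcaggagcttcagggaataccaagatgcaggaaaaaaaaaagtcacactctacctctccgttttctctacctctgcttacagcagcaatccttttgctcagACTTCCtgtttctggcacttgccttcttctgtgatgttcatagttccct
Ptprc has a second window in RefSeq (138175127 to 138175376), not shown, with 1 match at 237 bases before its start and no TATAAA. The 2 windows overlap, and this match is the ACTTCC already in capitals in the window shown. The Ptprc window shown held 2 matches, and those of Cd5 and Il7r 1 each, at 51 and 49 bases before the start. The windows of Cd44 and Cd27, also matched but not shown, held none. Of the 32851 windows of this length 19.7% held a match. TATAAA was also sought on either strand. It occurred once in the Ptprc window shown, on the opposite strand (printed as tttata), 187 bases before the start. None of the windows of Cd5, Il7r, Cd44 and Cd27 held it, against 12.4% of all windows. These are letter matches and not measured binding.

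The T-cell label was checked against its markers. Cd3d, Lck and Lat had reads in 95 of 95 cells, Cd3e and Cd3g in 94 and Zap70 in 91, whereas Cd247, the zeta chain of the receptor, had reads in 17. Cd8a was at 0 in all 95 cells, which allows a share of cells with reads (not of cells expressing it) of up to 3.16%, and Cd4 had reads in 4 cells. Of 20 markers of B, myeloid, NK, erythroid and stromal cells, 10 were at 0 in every cell and the most widely detected was Pecam1, with reads in 48 cells. Ctcf itself averaged 60.3 TPM in WT 1, 37.1 in WT 2, 15.96 in CTCF-KD 1 and 44.9 in CTCF-KD 2. In these cells Ctcf was lower in CTCF-KD 1 than in both WT cultures. In the culture labelled CTCF-KD 2 it lay between them, with an SD over cells of 50.0 TPM. The paper reports lower CTCF mRNA by qPCR and lower protein by Western blot for both knockdowns. Every difference between conditions below thus includes a culture whose Ctcf mean in these single cells does not bear out its label. The difference in Ctcf was -0.79 (log2, SE 0.66), with an adjusted p of 0.815 from limma. Cells had medians of 4771 and 4635 detected genes in WT 1 and WT 2 and 6172.5 and 5656 in CTCF-KD 1 and CTCF-KD 2, which bears on every share of cells given below.

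Ptprc was the highest of the 9 genes and was graded. Reads were present in all 95 cells, and the mean was 741 TPM ± 495 (SD over cells, n = 24) in WT 1, 1083 ± 713 (n = 23) in WT 2, 549 ± 384 (n = 24) in CTCF-KD 1 and 950 ± 626 (n = 24) in CTCF-KD 2. Single cells ran from 69.5 TPM in WT 1 to 3119 TPM in CTCF-KD 2. Both cultures of the second experiment were above both of the first, and the conditions overlapped. The SD of log2 TPM within cultures was 1.08, and 7.28% of genes with such a value had a smaller one. Such ranks are over genes of any detection. Genes also found in all 95 cells lay on both sides of Ptprc, such as Actb at 0.51 and Acat1 at 1.48. Ptprc ranked between percentiles 97.5 and 99.0 of the genes tested in each culture.

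Thy1 was the other gene found in nearly every cell, in 94 of 95. Its mean was 169 TPM ± 72.4 (n = 24) in WT 1, 129 ± 97.7 (n = 23) in WT 2, 142 ± 71.97 (n = 24) in CTCF-KD 1 and 133 ± 87.01 (n = 24) in CTCF-KD 2. The median cell held 163, 117, 146 and 110 TPM in the same order, so the 4 cultures were close to each other and the conditions overlapped. The SD of log2 TPM in cells with reads was 1.10, near that of Ptprc. The cell without Thy1 was in WT 2.

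**Figure D1:**
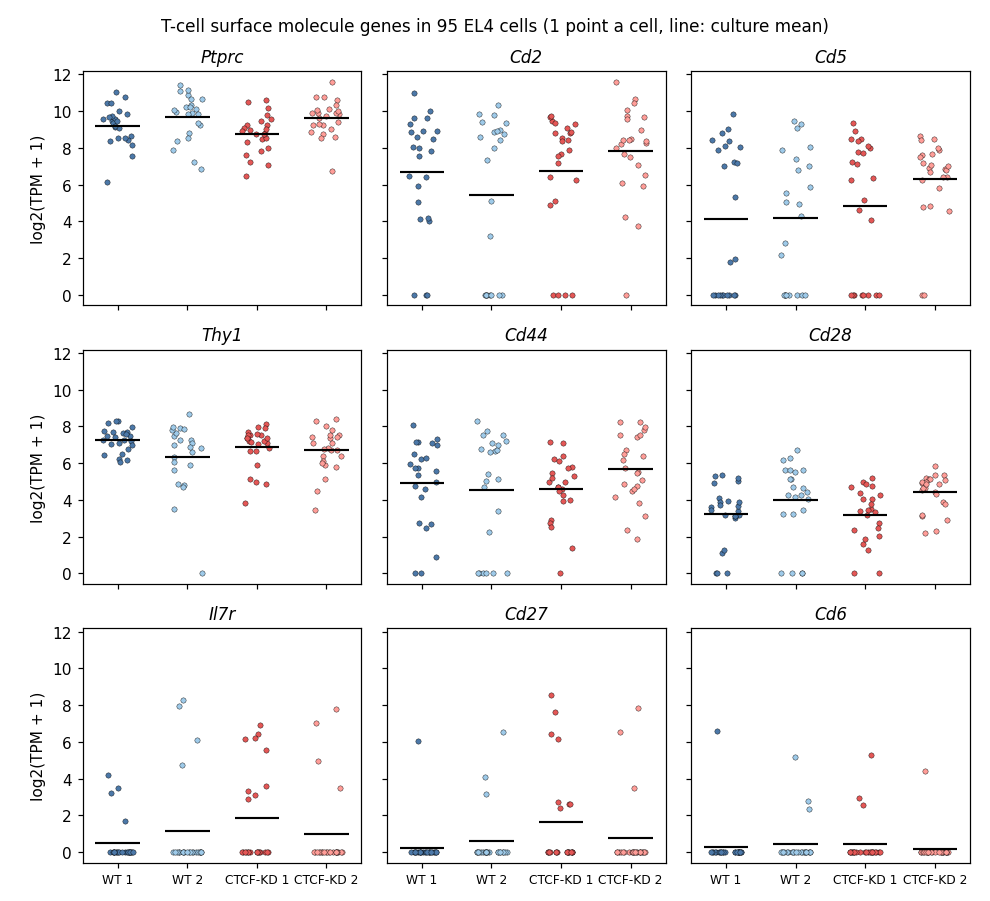
Each point is 1 cell, placed by log2(TPM + 1) in 4 cultures, and lines mark culture means, with 1 panel for each of the 9 genes. Ptprc and Thy1 form a single cloud above 0 (95 and 94 of 95 cells with reads). Cd5 is at 0 in 28 of 95 cells and runs from 2.38 to 916 TPM in the others. Il7r, Cd27 and Cd6 are at 0 in 74, 80 and 87 cells.

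Cd5, a dampener of receptor signalling, matched Thy1 in mean level but not in its distribution. Its mean was 158 TPM ± 228 in WT 1, 129 ± 212 in WT 2, 152 ± 182 in CTCF-KD 1 and 141 ± 111 in CTCF-KD 2. Reads were present in 14 of 24, 15 of 23, 16 of 24 and 22 of 24 cells, and the highest cell held 916 TPM, in WT 1. The means hardly differed between cultures, while cells without Cd5 were fewest in CTCF-KD 2. Across the 95 cells 28 lacked Cd5 reads, where 0.0026 would be expected if all cells of a culture held the same amount per read sequenced. More cells without reads than so expected were seen in 95.6% of genes tested, so this excess is common, and cells without the RNA and cells whose RNA was not captured cannot be told apart.

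In cells with Cd5 the mean was 270 TPM in WT 1, 198 in WT 2, 229 in CTCF-KD 1 and 153 in CTCF-KD 2. The SD of log2 TPM among those cells was 2.61, 2.34, 1.58 and 1.17 in the same order. The levels were thus closest to each other in CTCF-KD 2, which also had the most cells with Cd5, while WT 2 and CTCF-KD 1 hardly differed in their share of such cells. After thinning to 80000 reads the share with Cd5 was 51.96%, 58.4%, 65.6% and 95.1%. Thinning left out 1 CTCF-KD 2 cell with 41591 reads and none of Cd5, and without that cell the share in CTCF-KD 2 was 95.7% before thinning.

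Cd6, the neighbour and relative of Cd5, had the lowest mean of the 9 genes in each culture but WT 1, where Cd27 and Il7r were lower. It had reads in 1, 3, 3 and 1 cells of WT 1, WT 2, CTCF-KD 1 and CTCF-KD 2, with 69 reads over all 95 cells. Means were 3.94, 1.99, 2.09 and 0.864 TPM, and the single WT 1 cell with reads held 94.6 TPM. Of the 8 cells with Cd6, 7 also had Cd5, where 5.46 were expected from the shares within cultures. At this depth 49.7 cells without Cd6 were expected at equal levels, against 87 seen.

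Cd28, the main costimulatory receptor of naive T cells, was low but widespread. Means were 13.7 TPM ± 12.2 in WT 1, 29.6 ± 27.8 in WT 2, 12.4 ± 10.4 in CTCF-KD 1 and 24.5 ± 13.3 in CTCF-KD 2, with reads in 21, 19, 22 and 24 cells. As with Ptprc, both cultures of the second experiment were above both of the first. Its SD of log2 TPM in cells with reads was 1.21, and 11.2% of genes had a smaller one, although Cd28 ranked only between percentiles 47.3 and 60.5 in level.

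Cd27, a costimulatory receptor of the TNF receptor family, was found in 1, 3, 8 and 3 cells. The means were 2.76 TPM in WT 1, 5.04 in WT 2, 30.7 in CTCF-KD 1 and 13.9 in CTCF-KD 2, and the highest cell held 369 TPM in CTCF-KD 1. Both CTCF-KD means were above both WT means, but the 3 highest cells held 88.7% of the reads in CTCF-KD 1. The SD of log2 TPM among its 15 cells with reads was 2.48, wider than in 98.5% of genes.

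Cd2, an adhesion molecule that binds CD48 on other cells, was the second highest gene of the 9. Means were 361 TPM ± 463 in WT 1, 323 ± 364 in WT 2, 316 ± 276 in CTCF-KD 1 and 539 ± 681 in CTCF-KD 2. Reads were present in 21, 15, 20 and 23 cells. CTCF-KD 2 had the highest mean and the highest single cell, 3014 TPM, and its 3 highest cells held 58.04% of its Cd2 reads. WT 2 had the most cells without Cd2, 8 of 23, although its median cell with reads was the highest of the 4 cultures at 461 TPM.

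Cd44, a receptor for hyaluronan that marks activated and memory T cells, averaged 66.2 TPM ± 67.7 in WT 1, 80.996 ± 86.7 in WT 2, 39.5 ± 37.9 in CTCF-KD 1 and 95.5 ± 97.9 in CTCF-KD 2. Reads were present in 22, 17, 23 and 24 cells. The lowest and the highest mean were both in CTCF-KD cultures. Its SD of log2 TPM in cells with reads was 1.83, near the median of 1.73 over genes.

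Il7r was on in few cells. It had reads in 4, 4, 9 and 4 cells, with means of 1.58 TPM in WT 1, 28.4 in WT 2, 17.96 in CTCF-KD 1 and 16.2 in CTCF-KD 2. The positive cells of WT 1 held at most 17.1 TPM, from at most 5 reads, whereas the highest cell of WT 2 held 315 TPM. WT 1 and WT 2 thus differed in the level of the cells with reads (mean of 9.46 against 163 TPM) and hardly in their number.

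**Figure D2:**
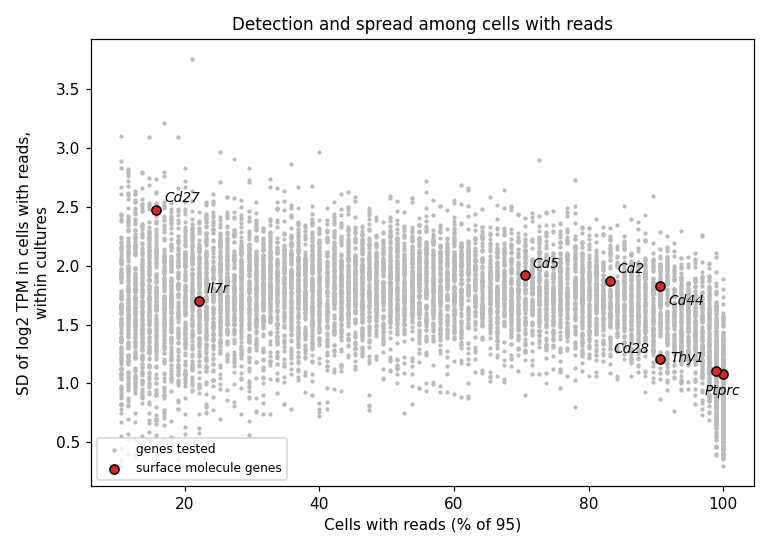
Each point is a gene, placed by the percent of the 95 cells with reads (x) and by the SD of log2 TPM among cells with reads within cultures (y), for genes with such an SD (grey) and 8 of the 9 surface molecule genes (red). Ptprc, Thy1 and Cd28 have the lowest SD of these 8 (1.08, 1.10 and 1.21). Cd5, Cd2 and Cd44 lie between 1.83 and 1.92, and Cd27 is at 2.48. Cd6 had too few cells for this SD.

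The design asks whether lowering Ctcf moved these genes. No member passed the test for level, with adjusted p between 0.640 and 0.989 from limma, against 0% of the 11980 genes tested. The smallest adjusted p over all genes was 0.585, and 912 genes had an unadjusted p under 0.05. Cd27 differed most, by 2.19 on the log2(mean TPM + 1) scale (SE 0.89, adjusted p = 0.640 from limma), and was the only member with an unadjusted p under 0.05. That order depended on the scale and the cultures, since the mean over cells of log2(TPM + 1) gave 0.76 for Cd27, 1.44 for Cd5 and 1.20 for Cd2, and without WT 2 the difference was 2.53 for Cd27 and 2.81 for Il7r. It was also the only member whose CTCF-KD means both exceeded the 2 WT means, as in 19.9% of genes, and no member had both of them lower, as in 16.9%. The median difference of the 9 members was -0.10, beside 0.04 over all genes tested. With 2 cultures a condition, the smallest p that an exact permutation test (two-sided) of 1 value can reach is 0.333.

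The share of cells with reads was higher in both CTCF-KD cultures than in both WT cultures for Cd5, Cd28 and Cd44, 3 of the 9 members, beside 36.2% of genes tested, and lower for none, beside 5.96%. The mean share of Cd5 differed by 17.4 percentage points, that of Cd44 by 15.1 and that of Cd28 by 10.8, where the median over all genes was 5.98. No member passed the test, with adjusted p between 0.292 and 1 from limma, nor did any of the 11980 genes (0%), among which 2210 had an unadjusted p under 0.05. With variances raised to the counting variance of a share, an alternative chosen after seeing the data, 222 genes were called and again no member. In the 94 cells deep enough to thin to 80000 reads, the difference after thinning was 25.2 points for Cd5, 14.8 for Cd44 and 7.57 for Cd28, with a median of 5.91 over genes, and in the same cells without thinning it was 19.4, 15.1 and 10.8. For Cd28 the cultures then overlapped, with thinned shares of 74.9% in WT 1, 79.6% in WT 2, 74.9% in CTCF-KD 1 and 94.7% in CTCF-KD 2. The cultures overlapped for Cd28 also when cells above 10 TPM were counted (50%, 73.9%, 45.8% and 79.2%). On the arcsine scale of the test the difference depended on single cultures, from 0.051 without CTCF-KD 2 to 0.37 without CTCF-KD 1 for Cd5, from 0.10 to 0.40 without the same cultures for Cd28, and from 0.19 without WT 2 to 0.43 without WT 1 for Cd44. Intervals for single shares, given in the plot of shares, cover the counting of cells only.

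**Figure D3:**
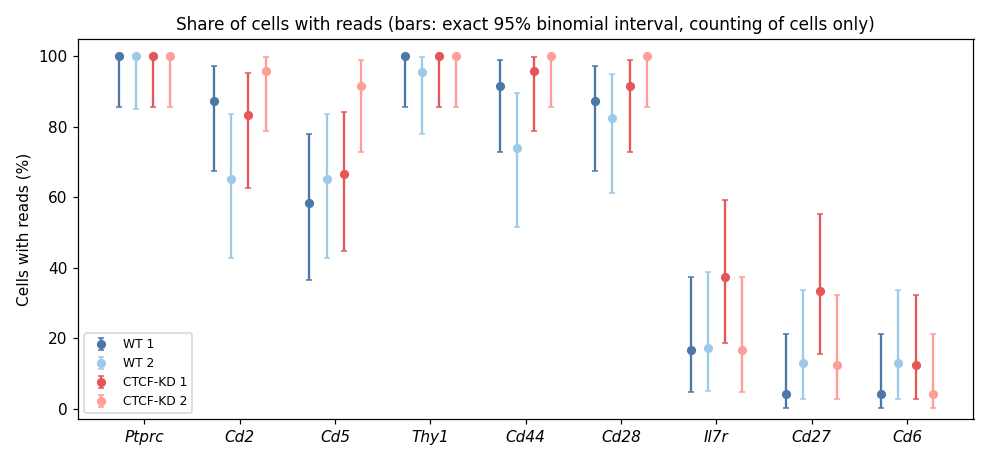
The percent of cells with reads (y) is given for each of the 9 genes in 4 cultures, with exact (Clopper-Pearson) 95% binomial intervals that cover the counting of cells only. Cd5 runs from 58.3% in WT 1 to 91.7% in CTCF-KD 2, and Ptprc is at 100% in each culture.

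The study asks above all how cell-to-cell variation changed. The paper cites earlier work of its authors, where knockdown of CTCF or loss of its sites raised variation of Cd28, Cd5 and Thy1 between cells. Its abstract names flow cytometry and RNA-FISH of single cells for that work, measures unlike the CV used here. The CV of log2(TPM + 1) had a lower mean over the CTCF-KD cultures for each of the 7 members tested (Cd6 and Cd27 were too low), with a median difference of -0.23, beside -0.22 over the 7823 genes tested. None of the 7 passed the test, with adjusted p between 0.165 and 0.871 from limma, while 4.14% of genes were called lower and 0.0639% higher. Cd5 differed by -0.36, Cd44 by -0.23 and Cd28 by -0.17. For these genes both CTCF-KD cultures were below both WT cultures, as in 53.9% of genes (4.9% had both above). The CV includes cells at 0, so it also depends on the share of cells with reads. Before thinning, that share was higher in both CTCF-KD cultures for the same genes. With the replicate block, which pairs the cultures of an experiment, 1581 genes were called in place of 329, and no member was among them.

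**Figure D4:**
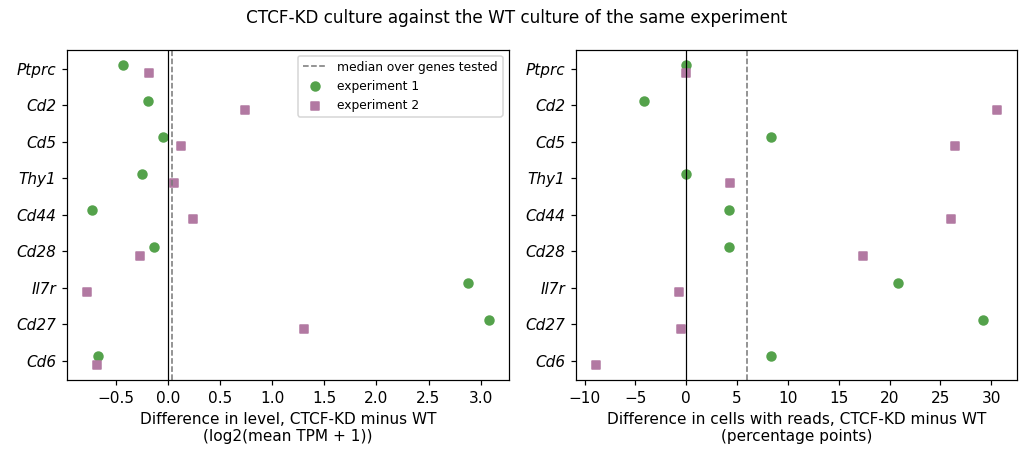
For each gene the difference between the CTCF-KD and the WT culture of the same experiment is shown for level (left, log2(mean TPM + 1)) and for cells with reads (right, percentage points), with circles for experiment 1, squares for experiment 2 and a dashed line for the median over genes tested. Il7r lies at 2.88 in experiment 1 and -0.78 in experiment 2, and Cd27 at 3.08 and 1.30.

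Co-detection was set against the number of cells expected from the 2 shares within cultures. Since Ptprc and Thy1 were in nearly every cell, their pairs are near 1 by construction, and the other 21 pairs are described, a choice made after seeing the data. Cells with both genes came to between 0.51 times (Cd6 and Il7r) and 1.93 times (Cd6 and Cd27) the number expected, above it in 16 pairs and below it in 5, and 1.03 times over the 21 pairs together. Both extremes rest on 1 and 3 cells. Cd5 and Cd44 were both found in 64 cells where 61.3 were expected, and Cd5 and Cd28 also in 64 where 61.3 were expected. Cd2 and Il7r were found together in 14 cells where 17.4 were expected, and Cd2 and Cd27 in 10 where 12.4 were expected. A cell held 5.5, 5.26, 6.21 and 6.21 of the 9 genes on average in WT 1, WT 2, CTCF-KD 1 and CTCF-KD 2. In WT 2 this number went with the number of genes detected in the cell (r = 0.73 over 23 cells of 1 culture), and in the other cultures r was 0.20, 0.31 and 0.51.

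Il7r and Ptprc ran opposite to each other. Over the 95 cells, culture means removed, their levels correlated at r = -0.41, the lowest of the 36 pairs, and the highest was 0.38, for Cd5 and Ptprc. The median Ptprc level in cells with and without Il7r was 257 and 722 TPM in WT 1, 241 and 1054 in WT 2, 250 and 533 in CTCF-KD 1, and 606 and 928 in CTCF-KD 2. Ptprc was lower in cells with Il7r in each culture,, where 4 of 4, 3 of 4, 8 of 9 and 3 of 4 cells with Il7r lay below the median of the cells without it. Cells with Il7r had a median of 199368 recovered reads and cells without it 218182. The comparison was chosen after the values were seen and is a description of cells from 4 cultures. On the log2(TPM + 1) scale, the median Cd5 level was also lower in cells with Il7r in each culture, by differences of -7.09, -2.56, -2.59 and -0.23 in WT 1, WT 2, CTCF-KD 1 and CTCF-KD 2. For Cd2 the differences were -2.93, -8.41, -2.41 and 0.18, lower in 3 of the 4 cultures, and for Thy1 -0.28, -0.73, 0.04 and -0.03. The largest come from medians of 0. In WT 1, 0 of the 4 cells with Il7r had Cd5 reads, and in WT 2, 1 of the 4 had Cd2 reads.

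**Figure D5:**
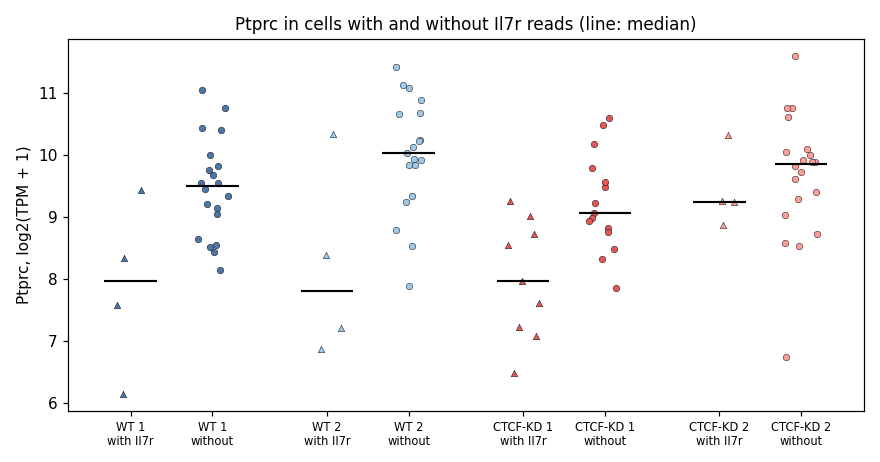
Ptprc level in log2(TPM + 1) is shown for cells with Il7r reads (triangles) and without (circles) in 4 cultures, with a line at each median. The line of cells with Il7r is the lower one in each culture, by 1.54, 2.24, 1.09 and 0.61 on this scale.

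Among 7021 other genes with reads in at least 30 cells, the one whose level over cells was most like Cd2 was Cytip, a partner of cytohesins in lymphocytes (r = 0.63, Spearman's rho = 0.54, the next gene 0.48). Its r was 0.31, 0.87, 0.65 and 0.49 in WT 1, WT 2, CTCF-KD 1 and CTCF-KD 2. For Ptprc it was Adh1, an alcohol dehydrogenase (r = 0.562, rho = 0.59), nearly tied with the next gene (0.560). Its r was between 0.49 and 0.64 in the 4 cultures. The median Ptprc level in cells with and without Adh1 was 1058 and 465 TPM in WT 1, 1625 and 759 in WT 2, 604 and 337 in CTCF-KD 1, and 1026 and 602 in CTCF-KD 2. For the other members the highest r was between 0.38 and 0.51, with Galnt6 for Thy1, 4930592A05Rik for Cd5, Utrn for Cd28, St3gal2 for Cd6, Abi3 for Cd27, Rad51b for Il7r and Trappc6a for Cd44. Spearman's rho for these ran from 0.15 for Cd6 to 0.40 for Cd28. The points are cells that share a circuit and a range of depths, and each gene named is the highest of 7021.

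Genes that work with the members were counted from lists, and none passed the test for level. Of 8 genes tested from a list of ligands, which also held Hmmr, a receptor for the same matrix sugar as Cd44 and not a ligand, 2 were higher and 2 lower in CTCF-KD without overlap between the cultures, beside 19.9% and 16.9% of all genes tested. Cd48, the ligand of Cd2, had means of 117 and 137 TPM in WT 1 and WT 2 and 178 and 199 TPM in CTCF-KD 1 and CTCF-KD 2 (difference 0.57 on the log2(mean TPM + 1) scale, SE 0.33, adjusted p = 0.754 from limma). Hmmr had means of 55.6 and 106 TPM in WT and 40.5 and 25.99 TPM in CTCF-KD. Of 29 partners inside the cell, 1 lay above and 7 below without overlap, beside 19.9% and 16.9% of all genes tested. Siva1, which binds the tail of CD27, averaged 365 and 378 TPM in WT and 742 and 496 TPM in CTCF-KD. Jak3, a kinase of the IL-7 receptor complex, averaged 18.7 and 9.93 TPM in WT and 1.86 and 3.55 TPM in CTCF-KD. Of 14 other costimulatory and coinhibitory receptors 1 lay above and 2 below, of 15 adhesion and homing molecules 3 and 1, of 12 tetraspanins and small glycoproteins 0 and 0, and of 8 T-lineage genes 1 and 4, to be read beside the same 19.9% and 16.9%.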

How the data were processed

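Single-cell RNA-seq of EL4 cells was analysed from 1 table of 24057 genes by 96 cells. Per the paper's methods, the authors aligned reads to GRCm38 with STAR, used the reads that mapped uniquely, assigned them to RefSeq genes with HTSeq and deposited TPM, which corrects each value for the length of its gene and scales cells to a common total. No molecular identifiers were described. The intervals given for shares of cells cover the counting of cells only.

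Cells with fewer than 3000 genes above 0 were left out, which removed 1 WT 2 cell. The members and gene lists were chosen with earlier results of these data known. Whole reads were recovered from the steps of the TPM values (11998 of 11998 genes that could be checked, tolerance 0.001) and served for depth and for thinning to 80000 reads. Medians of 131098 to 247586 reads per cell were recovered, fewest in CTCF-KD 2.

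The culture was the replicate. Genes for which 2 or more cells exceeded 1 on the log2(TPM + 1) scale were tested with limma 3.58.1 (R 4.3.3) on log2(mean TPM + 1), with a pseudocount of 1 TPM, and on the arcsine square root of the share of cells with reads. The CV (SD divided by mean, for log2(TPM + 1) among cells within each culture) was tested for 7823 genes. P-values were adjusted by Benjamini-Hochberg over all genes tested, with a threshold of 0.05. Each test was tried on simulated data, made by shuffling the kept cells among cultures and changing some widely detected genes. Such data hold no spread between cultures beyond that of cells, so they cannot show how the tests act on real cultures. The share test as first written recovered none of the changed genes in the simulated data. It was therefore refitted, after its first result on the real cultures was known, with the prior variance estimated only from genes whose shares differed between cultures of a condition. The first fit is given among the alternatives.

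The replicate number pairs the cultures, since the study describes an initial experiment (number 1) and a second knockdown (number 2). Deviations from the condition means correlated between same-numbered cultures at r = 0.18 over 11980 genes for level and 0.14 for CV. The fit without the block was kept as the main one, and the replicate block is an alternative. The other alternatives were each culture left out, cells with at least 4000 genes, other pseudocounts, no filter on low values, detection above 10 TPM, thinned reads and the SD in place of the CV. Named genes were the 9 members, Ctcf, the gene most like each member over cells, and in each list up to 2 genes per direction whose CTCF-KD cultures lay on the same side of both WT cultures with at least 10 TPM in 1 culture. Coordinates came from GENCODE M21 on GRCm38 and promoter sequences from RefSeq on GRCm38.p6.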

Additional observations from a re-analysis of the deposited data

Results flagged for a closer look

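For 5 of the 9 members the level differed in opposite directions in the 2 experiments, each of which had 1 culture per condition. On the log2(mean TPM + 1) scale, CTCF-KD minus WT was -0.25 in experiment 1 and 0.052 in experiment 2 for Thy1, -0.048 and 0.12 for Cd5, and -0.19 and 0.74 for Cd2. It was 2.88 and -0.78 for Il7r and -0.73 and 0.24 for Cd44. The difference between the experiments was not tested. The difference in Ctcf was -1.85 in experiment 1 and 0.27 in experiment 2, and its part in these values was not tested.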

How the results depend on the processing

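No member passed the threshold for level, share or CV under any alternative run, with a lowest adjusted p from limma of 0.288, 0.234 and 0.0748. Of 90 level values, 99 share values and 63 CV values of single members under these alternatives, 79, 95 and 58 were counted as keeping their direction. The share values so counted include those of Ptprc, whose main difference was 0 and had no direction to keep. They also include differences of 0 for Thy1 with cells of at least 4000 genes and without WT replicate 2. The mean over cells of log2(TPM + 1) gave 46 level calls and positive differences for Cd28 (0.17) and Cd44 (0.40), changed those of Cd5 to 1.44, Cd2 to 1.20 and Cd27 to 0.76, and moved the median of all genes from 0.04 to 0.23. For share, the fit first run, with the prior from all genes, gave 0 calls, as did the refit, which was made after that result was known. Variances at the counting floor, chosen after seeing the data, gave 222. Leaving out 1 culture gave 0 to 11 share calls, the 11 without WT replicate 1. For CV, 329 calls became 1581 with the replicate block, 768 with a pseudocount of 10, 72 with the SD in place of the CV and 0 with cells of at least 4000 genes. Leaving out 1 culture gave 0 to 654 CV calls, with 654 without WT replicate 1, 176 without WT replicate 2 and 0 without either CTCF-KD culture. The cause was not tested. No other count of calls was changed by the block. With 1 culture left out, the level difference ranged from -0.29 to 0.096 for Thy1, -0.11 to 0.18 for Cd5, -0.73 to 0.33 for Cd28, -0.11 to 0.66 for Cd2, -0.71 to 0.085 for Ptprc, -0.71 to 2.81 for Il7r and -0.87 to 0.38 for Cd44. The share difference then ranged from 0.051 to 0.37 for Cd5, 0.10 to 0.40 for Cd28, 0.19 to 0.43 for Cd44, -0.086 to 0.078 for Cd6 and -0.0048 to 0.23 for Il7r, and the CV difference from -0.13 to 0.079 for Thy1 and -0.92 to 0.056 for Il7r. Cd6 had a share difference of 0.0053 (arcsine scale) with thinned cells, Thy1 a CV difference of 0.024 with cells of at least 4000 genes and 0.0013 with a pseudocount of 10, and Il7r an SD difference of 0.49. Co-detection, with each culture or the pairs of Ptprc and Thy1 left out as alternatives chosen after seeing the data, stayed within the spread between cultures. In CTCF-KD 2, the culture with fewest reads, equal levels would leave 20.3 cells without Cd6, 7.08 without Cd27 and 1.61 without Il7r. Those seen were 23, 21 and 20. Thinning lowered the share with Cd28 reads from 87.5% to 74.9% in WT 1 and from 91.7% to 74.9% in CTCF-KD 1. It lowered that of Cd27 from 33.3% to 22.6% in CTCF-KD 1 and that of Il7r from 16.7% to 11.8% in WT 1. Which member depth limits most was not tested.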
